A study of Mus musculus with 12 samples.

Results

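The mitochondrial respiratory chain and its ATP synthase are built from subunits of 2 genomes, and the 84 genes described here are the nuclear-encoded ones: 38 symbols of complex I, 4 of complex II, 8 of complex III, 17 of complex IV and 17 of complex V. They were taken from the 32190 gene symbols of the count tables by name (symbols beginning Nduf with a letter a, b, c, s or v and a digit, Sdha to Sdhd, Uqcr, Cox4 to Cox8, and Atp5). Of the symbols so named, 3 whose names mark them as pseudogenes were left out. Among the 89 others, 5 (Cox7b2, Cox8b, Cox8c, Ndufb11b and Ndufs6b) had fewer than 10 counts in every library and were also left out. Ndufa4 and its relative Ndufa4l2 carry complex I names and are counted here with complex IV, where the Ndufa4 protein is found. The names Ndufb4, Ndufb4b and Ndufb4c had identical counts in every library, so they hold 1 measurement. It entered summed levels once, but counts and shares of subunits 3 times. Ndufb4c is annotated as a processed pseudogene.

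Electrons from NADH enter the chain at complex I, those from succinate at complex II, and both pass through complex III to complex IV, which reduces oxygen. Complexes I, III and IV pump protons, and complex V uses the proton gradient to make ATP. In activated dendritic cells (DCs) and macrophages the use of this chain is known to give way in part to glycolysis, and in cells that make nitric oxide respiration itself is inhibited.

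RNA was sequenced from 6 groups of 2 mouse libraries. Tumoral DCs were sorted at day 7 (early) or day 14 (late) from tumors of MC38, a colon carcinoma cell line. The hosts were Zbtb46-Tdtomato mice, in which Tdtomato reports Zbtb46, a gene that conventional DCs express, and their genotype label is WT. Bone marrow-derived DCs (BMDCs), which are grown in culture, came from WT mice or from mice labelled Pde5 knockout, and were collected unstimulated or after 12 h with 200 ng/ml lipopolysaccharide (LPS), an agonist of Toll-like receptor 4; all BMDCs carry a time label of 9 days. Nothing in the labels states that both libraries of a group were drawn from different animals or cultures, and a p-value here reflects only how far the libraries at hand spread, which can be technical.

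Total counts were 14.2 to 19.3 M per tumoral library and 16.1 to 19.7 M per BMDC library. Levels are given as CPM, counts scaled to library depth, adjusted by edgeR's trimmed mean of M values (TMM) within each table, and since the tumoral and BMDC tables were scaled separately, no test was made between them. Counts of Pde5a, the targeted gene, were 37 to 55 in unstimulated WT and 47 to 61 in unstimulated knockout-labelled libraries, and 20 to 52 against 22 to 43 with LPS, so they did not separate the genotype labels, and the word "labelled" is kept throughout. The 14 DC markers summed to 16656 to 25409 CPM over all libraries, with Cd209a at 0 in LPS-treated WT cells. Cd74 alone gave 5287 to 12225 CPM of this, so the sum hides differences between the sources. Zbtb46 was at 19.7 to 45.6 CPM in tumoral and 113 to 268 CPM in BMDC libraries, and Flt3 at 63.4 to 135 and 372 to 483 CPM. Batf3, Irf8 and Ccr7 were also lower in every tumoral library, and Itgax, Sirpa, Xcr1 and Cd209a were higher, without a test. The 8 macrophage markers summed to 4533 to 9158 CPM in the tumoral libraries and to 630 to 1404 CPM in the BMDCs.

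After TMM scaling the summed RNA of the 84 subunits was steady in the BMDCs. Its summed level was 5211 and 5467 CPM in the unstimulated WT libraries, 5153 and 5182 CPM in the unstimulated knockout-labelled ones, 5120 and 5449 CPM in WT with LPS, and 4990 and 5042 CPM in the knockout-labelled ones with LPS. The highest library was 1.10 times the lowest, and only the knockout-labelled LPS libraries lay below every other BMDC library. Both statements depend on the scaling: TMM factors were 1.07 and 1.10 in unstimulated WT and 0.944 and 0.946 in WT LPS libraries. With library size alone the subunits' median log2 fold change with LPS in WT was -0.29, against -0.09 with TMM. The medians of all genes were -0.23 and -0.02. Over the same 8 libraries the summed RNA of the cytosolic ribosomal proteins, the subunits of the ribosomes outside mitochondria, ran from 18526 to 35163 CPM, a ratio of 1.90, and that of the mitochondrial ribosome from 1479 to 1672 CPM, a ratio of 1.13. In the tumoral DCs the 84 subunits summed to 8201 and 7201 CPM at the early stage and 8168 and 9886 CPM at the late stage. Early replicate 1 and late replicate 1 were close together, and late replicate 2 stood above the other 3. With 2 libraries per group an exact permutation test of such a sum cannot go below p = 0.333 (two-sided), so sums are given without a test.

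**Figure D1:**
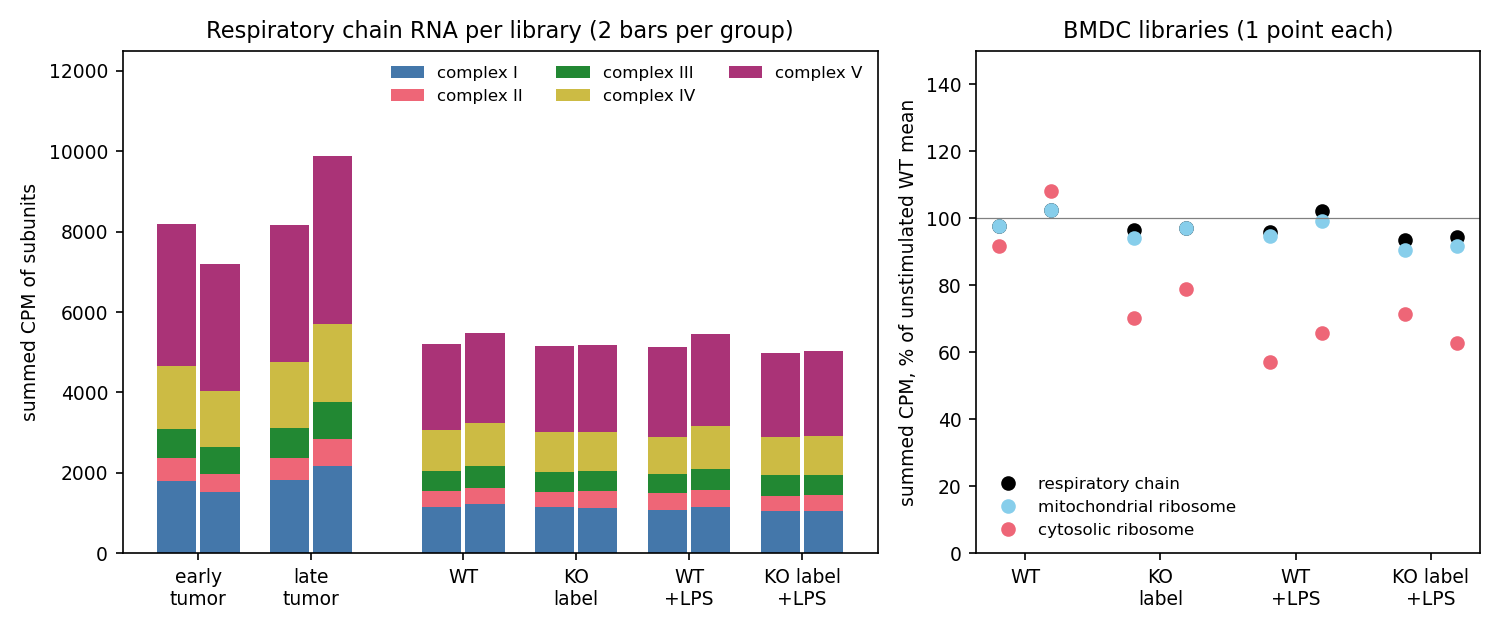
Left, summed CPM of the subunits of complexes I to V, stacked, with 1 bar per library and 2 bars per group; tumoral and BMDC libraries were scaled separately. Right, summed CPM of 3 gene groups in each BMDC library as a percent of the mean of the 2 unstimulated WT libraries. With TMM scaling, on which these levels depend, the respiratory chain stays near 100, between 4990 and 5467 CPM. The cytosolic ribosomal proteins spread from 18526 to 35163 CPM.

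The division of this RNA among the complexes lay in narrow ranges, with small differences between groups. Complex V held 40.9 to 43.4% of the summed subunit RNA in the BMDC libraries and 41.8 to 43.9% in the tumoral ones, and complex I, with the most subunits, 21.0 to 22.2% and 21.0 to 22.3%. Complex IV held 17.9 to 19.6% and 19.31 to 19.96%, complex III 9.57 to 10.1% and 8.76 to 9.38%, and complex II 7.50 to 8.01% and 6.51 to 7.03%. The ranges of complexes II and III did not overlap between the BMDC and tumoral libraries. Within the BMDCs, complex I held 21.8 to 22.2% in the unstimulated and 20.97 to 21.2% in the LPS libraries. Complex V held 40.9 to 41.8% and 42.0 to 43.4%. Neither complex overlapped between unstimulated and LPS libraries, while complexes II, III and IV did, and none of this was tested. These shares depend on transcript length as well as on the number of transcripts.

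Levels of different genes were compared per kb of the principal GENCODE transcript, which 79 of the subunits have. The subunit transcripts are short, with a median length of 809 bases against 2569 over 21951 protein-coding genes, and those with a known position lie on 19 chromosomes. In each of the 12 libraries the median level per kb was lowest for complex I and highest for complex V, with complex IV next. In unstimulated WT BMDCs the complex I median was 31.1 and 32.9 CPM per kb in the 2 libraries and the complex V median 113 and 112 CPM per kb. In late tumoral DCs the same medians were 50.3 and 62.6 against 158 and 197 CPM per kb.

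The same 8 genes were among the 10 highest per kb in all 6 groups. They were Atp5a1 and Atp5b, the alpha and beta subunits of the catalytic head of ATP synthase, Atp5e (its epsilon subunit), Atp5g3 (a copy of the proton-carrying c subunit), Atp5h (a subunit of the peripheral stalk), and Cox4i1, Cox6a1 and Cox8a of complex IV. Atp5b was the highest per kb in late tumoral DCs, at 580 CPM per kb, and Cox4i1 the highest in unstimulated WT BMDCs, at 299 CPM per kb against 282 for Atp5b. Ndufs1, the large iron-sulfur subunit of complex I, stood at 16.7 CPM per kb in unstimulated WT BMDCs. Ndufb2, an accessory subunit, had group means of 0.504 to 0.782 CPM per kb; the transcript used for it is 4371 bases long, and its exons overlap those of other genes, among them Braf.

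**Figure D2:**
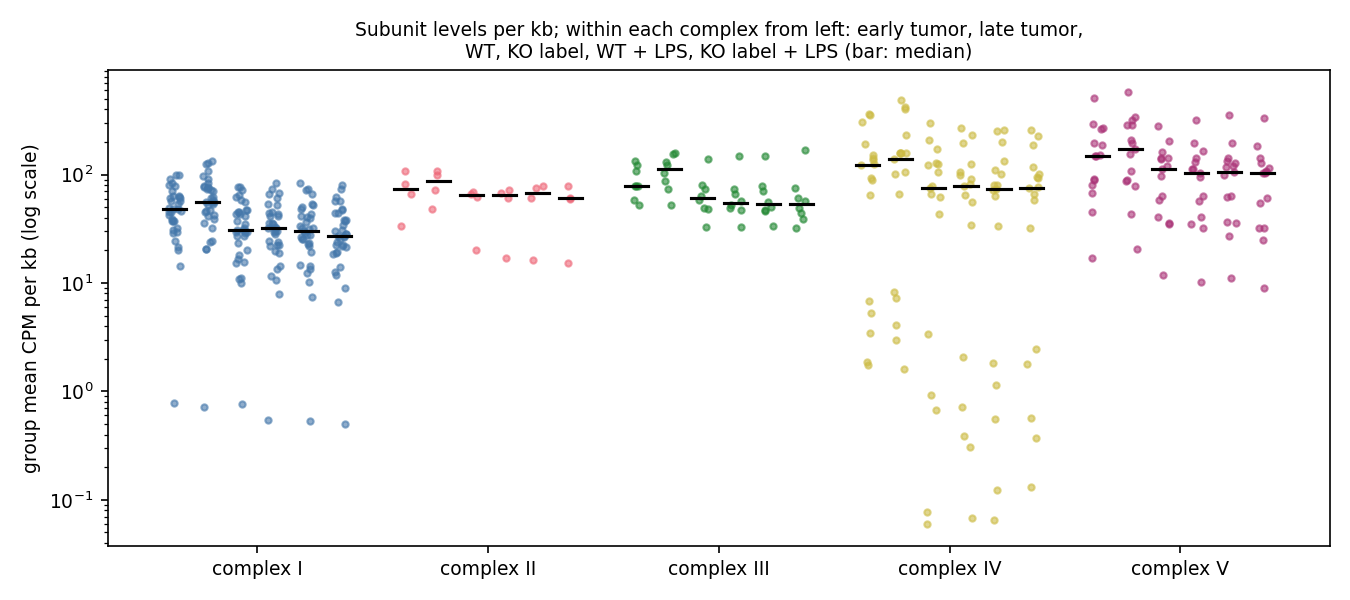
Group mean level of each subunit in CPM per kb of transcript (log axis), by complex; within each complex the 6 groups run from early tumor to knockout label with LPS, and bars are medians. Complex I has the lowest median and complex V the highest in every group, and the low points of complex IV are tissue-restricted isoforms.

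Tissue-restricted versions of complex IV subunits were rare in both cell sources. Cox4i2, the lung and hypoxia form of subunit 4, had 51 to 100 counts in the tumoral libraries, 1.11 to 1.60% of the Cox4i1 and Cox4i2 counts together, and 0 to 7 counts in the BMDC libraries, at most 0.203%. Ndufa4l2, a hypoxia-induced relative of Ndufa4, had 28 to 50 counts in the tumoral and 1 to 6 in the BMDC libraries. For both genes every tumoral library was above every BMDC library in counts, a difference between separately scaled tables that was not tested. Exons of Ndufa4l2 overlap those of Shmt2, and without a known strand setting their reads cannot be told apart.

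The muscle forms Cox6a2 and Cox7a1 had 75 to 94 and 14 to 34 counts in the tumoral libraries and 9 to 73 and 2 to 15 counts in the BMDC libraries. The 73 counts of Cox6a2 were in unstimulated WT replicate 2, whose replicate 1 had 9. Exons of Cox6a2 overlap those of Itgad, and without a known strand setting their reads cannot be told apart. The testis form Cox6b2 had at most 26 counts in any library. Cox4i2, Cox6b2, Cox7a1 and Ndufa4l2 were too low to be tested in the BMDCs, so 80 of the 84 subunits were tested there and all 84 in the tumoral DCs. The 3 copies of the c subunit, which differ in their import sequence and give the same mature protein, kept similar proportions, with Atp5g1 at 18.0 to 23.8%, Atp5g2 at 33.4 to 42.0% and Atp5g3 at 38.0 to 47.1% of their counts. Atp5g3 was the largest of the 3 except in unstimulated WT replicate 2 and late tumoral replicate 2, where Atp5g2 was.

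Promoters are shown because the subunits lie on many chromosomes and share a regulatory background: nuclear respiratory factor 1 (NRF1), a transcription factor, is known to bind many respiratory chain promoters. In windows from 250 bases before to 50 bases after the start of each gene (RefSeq, GRCm38.p6), the letters GCGCA and GCGC with 1 base between, searched on both strands, were present in 16 of the 68 subunits that have a window (23.5%). They were present in 4.78% of 27025 windows of all genes and in 10.3% of the 10301 windows of genes tested in the BMDCs. By complex the match was in 7 of 33 windows of complex I, 2 of 3 of complex II, 1 of 5 of complex III, 1 of 12 of complex IV and 5 of 15 of complex V. The following 30-base stretches hold it, in capitals, in either orientation; Sdha, the flavoprotein of complex II, has 3 matches, Atp5g2 and Ndufa6 are described further below, and Cox6a1, shown with 1 of its 2 matches, is among the highest subunits per kb.
Sdha, chr13:74350319-74350348, minus strand, 98 bases before the start: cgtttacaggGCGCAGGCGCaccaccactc
Sdha, chr13:74350276-74350305, minus strand, 55 bases before the start: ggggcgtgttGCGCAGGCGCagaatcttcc
Sdha, chr13:74350231-74350260, minus strand, 10 bases before the start: gcgactcggtGCGCAAGCGCagtctgtcgc
Cox6a1, chr5:115349101-115349130, minus strand, 162 bases before the start: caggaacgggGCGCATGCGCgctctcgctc
Atp5g2, chr15:102671070-102671099, minus strand, 42 bases before the start: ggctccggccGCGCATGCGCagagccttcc
Ndufa6, chr15:82354249-82354278, minus strand, 24 bases after the start: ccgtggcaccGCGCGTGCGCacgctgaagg

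A pattern of YY1, a transcription factor, AAGATGGCG, was in 6 of the 68 subunit windows (8.82%), 1.49% of all windows and 3.21% of the tested windows. Its 6 matches lay between 23 and 36 bases after the start, in Ndufs4, Ndufs6, Ndufs7, Ndufa9, Ndufc1 and Atp5j2. The ETS pattern CCGGAAGT was in 7.35% of the subunit and 8.37% of the tested windows, TATAAA in 8.82% and 7.06%, and an NF-kB pattern, GGGA and CC with 4 bases between, in 22.1% and 26.3%. Each was searched on both strands. A match is a description of the sequence and no evidence of binding in these cells.

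Between early and late tumors, 0 of the 84 subunits passed the test (edgeR quasi-likelihood, adjusted p under 0.05 over 13040 genes), where 0.023% of all genes did. At an unadjusted p under 0.05 there were 2 subunits and 1438 genes, and DESeq2 called 0 subunits and 2.38% of genes. The fitted log2 fold changes of the subunits, late over early, had a median of 0.25 against 0.01 over all genes, and 77 of 84 were positive against 6687 of 13040. By complex the medians were 0.26, 0.21, 0.31, 0.25 and 0.19 for complexes I to V. Both late libraries lay above both early libraries for 40 subunits (47.6%), against 23% of all genes, and below for 0 subunits, against 22.2% of all genes.

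These values rested in part on single libraries. Late replicate 2 held the highest level of 64 of the 84 subunits and early replicate 2 the lowest of 62. Without late replicate 2 the median was 0.14, with 71 of 84 positive, without early replicate 2 it was 0.18, with 65 positive, and without early replicate 1 it was 0.37, with 81 positive. The median standard error of a subunit's log2 fold change was 0.23, close to the median change itself.

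The subunit with the smallest p was Ndufa7, an accessory subunit of the NADH-oxidising arm of complex I, at 52.2 and 36.3 CPM early and 68.5 and 72.5 CPM late (log2 fold change, late over early, 0.67 with SE 0.25, adjusted p = 0.39 by edgeR). Uqcr11, a small subunit of complex III, stood at 41.9 and 27.7 CPM at the early stage and 46.5 and 63.0 CPM at the late stage (log2 fold change 0.65, SE 0.28, adjusted p = 0.45 by edgeR). In both genes the late libraries were above the early ones and early replicate 2 was the lowest; without early replicate 1 both passed, at adjusted p = 0.0434 and 0.0458 by edgeR. Ndufa2, another accessory subunit of that arm, at 50.9 and 54.0 against 65.1 and 79.8 CPM, and Atp5g2, at 162 and 123 against 172 and 244 CPM, came next and did not pass.

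None of the catalytic subunits named here passed between the stages. Sdhb, the iron-sulfur subunit of complex II, was at 145 and 100 CPM early and 115 and 132 CPM late. Atp5b was at 1020 and 921 CPM early and 999 and 1222 CPM late. Uqcrfs1, the Rieske iron-sulfur protein of complex III, had libraries that did not overlap, unlike Ndufs1, Ndufv1, Sdha, Sdhb, Uqcrc1, Atp5a1 and Atp5b, at 105 and 107 against 113 and 124 CPM. Its log2 fold change was 0.16 (SE 0.21, adjusted p = 0.81 by edgeR).

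In the other lists 0 genes passed either, and their fitted changes differed in direction. All 77 tested proteins of the mitochondrial ribosome had positive log2 fold changes (median 0.32), as did 76 of 83 cytosolic ribosomal proteins (median 0.28) and 43 of 56 assembly factors of complexes I to V (median 0.20). Of the regulators of biogenesis 2 of 10 were positive (median -0.29), of the mitochondrial DNA expression genes 13 of 24 (median 0.02), and of the TCA cycle genes 15 of 19 (median 0.10). Markers of other cells also differed between the stages, where both late libraries lay above both early ones for 23% of all genes and below for 22.2%. The 7 T cell markers summed to 330 to 477 CPM early and 63.3 to 99.0 CPM late, with 6 of 7 lower in both late libraries. The 5 natural killer cell markers summed to 464 to 896 and 51.3 to 161 CPM and the 5 fibroblast markers to 414 to 908 and 83.6 to 256 CPM, with 5 of 5 lower in each list. The 8 macrophage markers summed to 4533 to 7225 CPM early and 7550 to 9158 CPM late, with 4 higher and 1 lower. None of these 25 markers was at 0 in all libraries of a stage. Of the 14 DC markers 2 were higher and 3 lower in both late libraries, and of the 6 neutrophil markers 0 were higher and 0 lower. Of 4 proliferation markers 0 were higher and 2 lower, with sums of 242 to 311 CPM early and 167 to 172 CPM late. The part of any of these lists in the subunit values was not tested. In such bulk samples fewer cells of a type and less RNA per cell cannot be told apart.

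**Figure D3:**
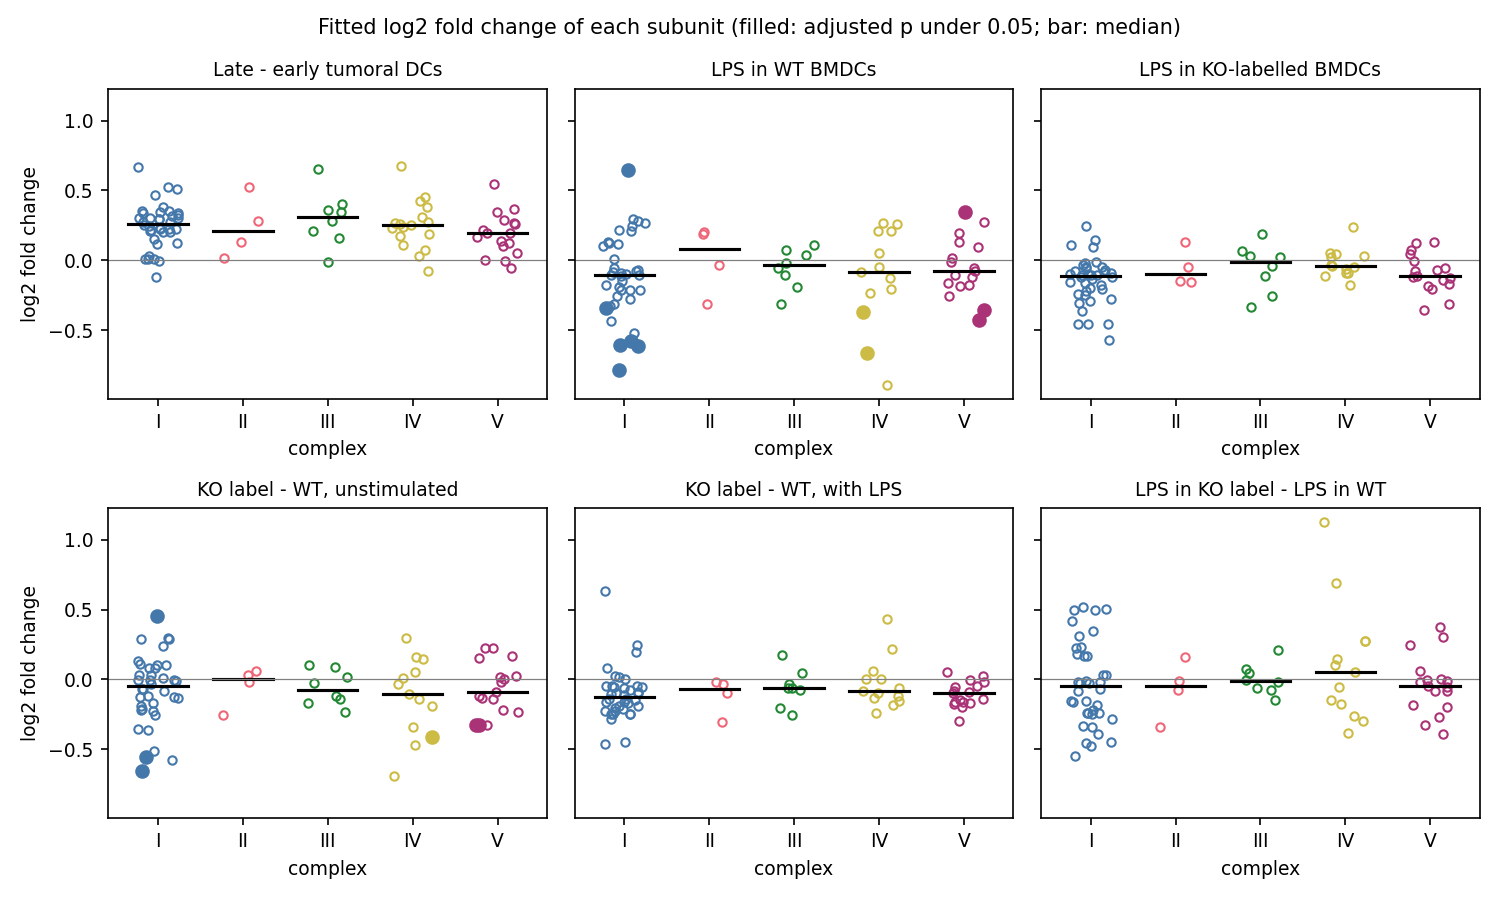
Fitted log2 fold change of each tested subunit by complex in the 6 comparisons; filled points passed at adjusted p under 0.05 and bars are medians. Late tumors show a median of 0.25 with no filled point, LPS in WT shows 2 filled points above 0 and 9 below, and the unstimulated genotype comparison 1 above and 5 below.

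In WT BMDCs, LPS changed 11 of the 80 tested subunits, 2 upward and 9 downward, with no change passing in complexes II and III. Ndufv2, an iron-sulfur subunit of the NADH-oxidising arm of complex I, rose 1.56-fold, and Atp5b, the catalytic beta subunit of ATP synthase, rose 1.27-fold. Ndufb11, Ndufb5 and Ndufa10 of the membrane arm of complex I fell, as did Ndufa6 and Ndufs8 of its matrix arm, Cox7b and Cox7a2l of complex IV, and Atp5g2 and Atp5mpl of the membrane part of ATP synthase. The share of subunits that passed was 13.8%, and that of all 13072 genes 37.6%, with 20% higher and 17.6% lower (edgeR quasi-likelihood, adjusted p under 0.05); the difference of these shares was not tested, and with scaling to library size alone they were 41.2% and 41.4%. The median log2 fold change was -0.09 against -0.02 over all genes, and -0.11, 0.08, -0.04, -0.09 and -0.08 for complexes I to V.

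Ndufv2 was at 57.0 and 51.7 CPM in unstimulated WT libraries and 83.0 and 86.9 CPM with LPS (log2 fold change 0.64, SE 0.14, adjusted p = 0.00688 by edgeR). Atp5b was at 535 and 547 CPM and 686 CPM in each LPS library (log2 fold change 0.34, SE 0.10, adjusted p = 0.0222 by edgeR). Neither gene's groups overlapped. Atp5a1, the partner of Atp5b in the catalytic head, was at 479 and 540 against 473 and 493 CPM and did not pass (log2 fold change -0.08, SE 0.10).

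Ndufb11, at 39.5 and 46.7 CPM without and 24.2 and 25.9 CPM with LPS, had the largest fall among the subunits that passed (log2 fold change -0.79, SE 0.13, adjusted p = 0.00248 by edgeR). Ndufa6, an accessory subunit of the matrix arm, was at 35.7 and 37.9 against 23.6 and 24.8 CPM (log2 fold change -0.60, SE 0.12, adjusted p = 0.0062 by edgeR). Cox7a2l, which helps to join complexes III and IV into supercomplexes, was at 116 and 155 against 74.8 and 96.0 CPM (log2 fold change -0.67, SE 0.16, adjusted p = 0.0135 by edgeR). In all of these the LPS libraries lay below the unstimulated ones, and the unstimulated libraries of Cox7a2l were farther from each other than the lower of them was from the higher LPS library.

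Ndufb5 stood at 27.6 and 35.7 CPM without and 18.0 and 23.4 CPM with LPS (log2 fold change -0.61, SE 0.20, adjusted p = 0.0446 by edgeR). Ndufs8, an iron-sulfur subunit near the quinone site, stood at 41.9 and 53.8 against 29.5 and 34.7 CPM (log2 fold change -0.58, SE 0.17, adjusted p = 0.0301 by edgeR). The remaining 4, Atp5g2, Cox7b, Atp5mpl and Ndufa10, had log2 fold changes of -0.43, -0.37, -0.36 and -0.35. Exons of Ndufb11 overlap those of Rbm10 and exons of Ndufb5 those of Mrpl47, and without a known strand setting their reads cannot be told apart. Such overlaps exist for 28 of the 80 subunits with a known position. Among them are Atp5g2 (Mir688), Atp5a1 (Haus1), Cox4i1 (Emc8), Ndufs1 (Eef1b2), Ndufa2 (Tmco6) and Ndufb6 (Smim27).

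Only Ndufb11, Ndufv2 and Ndufa6 passed in each of the 8 fits that left out 1 BMDC library. The count of 11 became 3 without unstimulated WT replicate 2, 4 without WT LPS replicate 1 and 6 without WT LPS replicate 2, where 21.6%, 19.7% and 23.7% of all genes passed. Scaling to library size alone, without TMM, gave 1 higher and 32 lower, with 41.4% of all genes called, and the median of all genes itself moved to -0.23 and that of the subunits to -0.29.

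Sdha and Uqcrc1 did not pass. Sdha was at 176 and 184 CPM without and 177 and 175 CPM with LPS, and its groups overlapped. Uqcrc1, a core protein of complex III, was at 131 and 133 against 129 and 131 CPM (log2 fold change -0.02, SE 0.09). Over all 80 subunits the WT LPS libraries lay above both unstimulated ones for 20 (25%) and below for 38 (47.5%), where 35.1% of all genes were above and 35.9% below.

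The sequences before the starts of Ndufv2 and Ndufb11, the subunits with the largest rise and the largest fall among those that passed, are given for reference: 250 bases up to the RefSeq start on the gene's strand (GRCm38.p6). None of the 5 patterns above was found in the windows of Ndufv2, Ndufb11 or Atp5b, which says only that these letters are not in these windows.
Ndufv2, chr17:66101560-66101809, minus strand: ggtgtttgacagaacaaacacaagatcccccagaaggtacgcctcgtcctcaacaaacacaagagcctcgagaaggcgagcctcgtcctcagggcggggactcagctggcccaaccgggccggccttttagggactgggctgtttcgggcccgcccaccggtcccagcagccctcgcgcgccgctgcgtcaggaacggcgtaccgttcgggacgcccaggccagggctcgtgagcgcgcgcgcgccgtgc
Ndufb11, chrX:20617620-20617869, minus strand: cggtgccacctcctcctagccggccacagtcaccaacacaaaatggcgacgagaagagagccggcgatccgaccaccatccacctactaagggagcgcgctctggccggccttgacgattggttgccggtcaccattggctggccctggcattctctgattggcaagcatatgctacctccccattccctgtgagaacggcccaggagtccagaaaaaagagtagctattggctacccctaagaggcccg

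Among genes that build, feed and maintain the chain, some rose and some fell with LPS in WT cells, by the same fit. Of all genes 37.6% passed in it, 20% higher and 17.6% lower. Of the assembly factors 26.8% passed and of the TCA cycle list 42.1%, and the differences from all genes were not tested. Of 56 assembly factors 7 rose and 8 fell; Tmem70, needed for ATP synthase assembly, rose (log2 fold change 0.50, SE 0.10) and Ndufaf6, a complex I assembly factor, fell (-1.36, SE 0.27). Of 19 genes of the TCA cycle list 2 rose and 6 fell. Acod1, which makes itaconate, an inhibitor of complex II, rose from 25.6 and 35.9 to 360 and 285 CPM (log2 fold change 3.39, SE 0.24). Idh2 (mitochondrial isocitrate dehydrogenase) fell by 0.93 on the log2 scale and Suclg2 (a subunit of succinyl-CoA ligase) by 1.06.

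Of 13 coenzyme Q genes, which make or carry the electron carrier between complexes, 1 rose and 2 fell: Coq10b rose by 1.08 and Coq2 fell by 0.81 and Coq10a by 0.77 on the log2 scale. Of 23 import and carrier genes 4 rose and 6 fell, with Slc25a20, the carnitine carrier, at 0.81 and Ucp2, an inner-membrane carrier, at -0.86. Of 15 stress genes 4 rose and 4 fell, with Sod2, the matrix superoxide dismutase, at 1.13 and Phb, a prohibitin, at -1.05. The mitochondrial ribosome had 6 of 77 proteins higher and 12 lower, mitochondrial DNA expression 1 of 24 higher and 6 lower, and the regulators of biogenesis 3 of 9 higher and 1 lower, among them Gabpb1 (0.75) and Esrra (0.38) higher. The shares that passed were 23.1% for coenzyme Q, 43.5% for import and carriers, 53.3% for stress and 23.4% for the mitochondrial ribosome. They were 29.2% for mitochondrial DNA expression and 44.4% for the regulators, beside 37.6% of all genes. The largest shift of a list was outside mitochondria: 68 of 81 cytosolic ribosomal proteins fell and 1 rose (85.2%), with a median log2 fold change of -0.69.

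In the same comparison 35.1% of all genes had both LPS libraries above the unstimulated ones and 35.9% below. The 6 neutrophil markers summed to 90.9 to 138 CPM in unstimulated WT libraries and 29.5 to 38.5 CPM with LPS, with 5 of 6 lower. Retnlg and Ly6g were at 0 with LPS, and without it at most at 0.281 CPM. Of the 14 DC markers 5 were higher and 7 lower. Of the 8 macrophage markers 5 were higher and 1 lower, with sums of 1215 to 1300 and 1094 to 1404 CPM. Their part in the subunit changes was not tested.

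Without stimulation, knockout-labelled BMDCs differed from WT in 6 of 80 subunits. Ndufv2 was higher, and Ndufs8, Ndufb11, Ndufa4, Atp5pb and Atp5c1 were lower: Ndufv2 stood at 1.37 times its WT level and Ndufs8 and Atp5c1, the largest and the smallest of the falls, at 0.634 and 0.799 times. This was 7.5% of the subunits against 18% of all genes (12% higher and 5.98% lower), and the median log2 fold change was -0.05 against -0.01. This comparison and LPS in WT share the unstimulated WT libraries, so the values of a gene in both are not independent.

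Ndufs8 was at 41.9 and 53.8 CPM in WT and 25.9 and 34.7 CPM in knockout-labelled libraries (log2 fold change -0.66, SE 0.17, adjusted p = 0.0333 by edgeR). Ndufb11 was at 39.5 and 46.7 against 27.0 and 31.6 CPM (log2 fold change -0.56, SE 0.13, adjusted p = 0.0211 by edgeR). Ndufv2 was at 57.0 and 51.7 against 80.3 and 68.8 CPM (log2 fold change 0.46, SE 0.14, adjusted p = 0.049 by edgeR). In all 3 genes the groups did not overlap. Over all 80 subunits the knockout-labelled libraries lay above both WT ones for 14 (17.5%) and below for 31 (38.75%), where 32.5% of all genes were above and 31.6% below.

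In ATP synthase, Atp5pb, the b subunit of the peripheral stalk, was at 161 and 160 against 119 and 136 CPM (log2 fold change -0.33, SE 0.09, adjusted p = 0.0415 by edgeR), and Atp5c1, the rotating gamma subunit, at 132 and 145 against 106 and 116 CPM (-0.32, SE 0.10, adjusted p = 0.0473 by edgeR). None of the 6 passed in all 8 fits that left out a library. The count was 0 without unstimulated WT replicate 2, 0 without unstimulated knockout-labelled replicate 1, 2 without either WT LPS library or either knockout-labelled LPS library, and 0 in a fit of only the 4 libraries compared. Of all genes, 6.39% passed in the first of these fits, 4.37% in the second, 13.6 to 14% in those without an LPS library and 7.79% in that of the 4 libraries. Scaling to library size alone gave 0 higher and 9 lower, and DESeq2 size factors 0 higher and 5 lower, so the call of Ndufv2 was lost under both. Among other lists 31 of 81 cytosolic ribosomal proteins were lower and 1 higher (39.5%, against 18% of all genes). By libraries that did not overlap, 5 of 6 neutrophil markers were lower (sum 47.6 to 57.6 CPM in the knockout-labelled libraries) and 5 of 8 macrophage markers higher. Of 14 DC markers 5 were higher and 6 lower, where 32.5% of all genes were higher and 31.6% lower. The part of these lists was not tested.

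Ndufa4 was looked at beside its relative AA467197, also named Nmes1, and the changes that held were those of AA467197. The AA467197 protein is known to replace Ndufa4 in complex IV in inflamed cells; the gene is not matched by the name rule and was looked at for that reason, and its exons overlap Mir147. AA467197 was at 4.48 and 4.27 CPM in unstimulated WT libraries and at 15.6 to 26.7 CPM in the other 6 BMDC libraries. It rose 3.92-fold with LPS in WT (log2 fold change 1.97, SE 0.21, adjusted p = 0.000443 by edgeR) and was 5.09-fold higher in unstimulated knockout-labelled than in WT cells (2.35, SE 0.21, adjusted p = 0.000793 by edgeR). Both calls, and that of the interaction below, held in all 8 fits that left out a library.

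Ndufa4 was at 43.4 and 47.5 CPM in unstimulated WT, 32.2 and 36.3 CPM in unstimulated knockout-labelled, 36.0 and 41.3 CPM in WT LPS and 37.0 and 33.6 CPM in knockout-labelled LPS libraries. With LPS in WT Ndufa4 did not pass (log2 fold change -0.23, SE 0.12, adjusted p = 0.152 by edgeR). It was lower in unstimulated knockout-labelled than in WT cells (log2 fold change -0.41, SE 0.12, adjusted p = 0.045 by edgeR), a call kept in 1 of the 8 fits with a library left out. The CPM of AA467197 was 0.0899 and 0.103 times that of Ndufa4 in unstimulated WT libraries and 0.423 to 0.827 times in the other BMDC libraries. In the tumoral DCs the ratio ran from 0.259 in early replicate 1 to 1.03 in early replicate 2, with the late libraries between them at 0.582 and 0.764, and AA467197 did not pass there (adjusted p = 0.85 by edgeR).

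**Figure D4:**
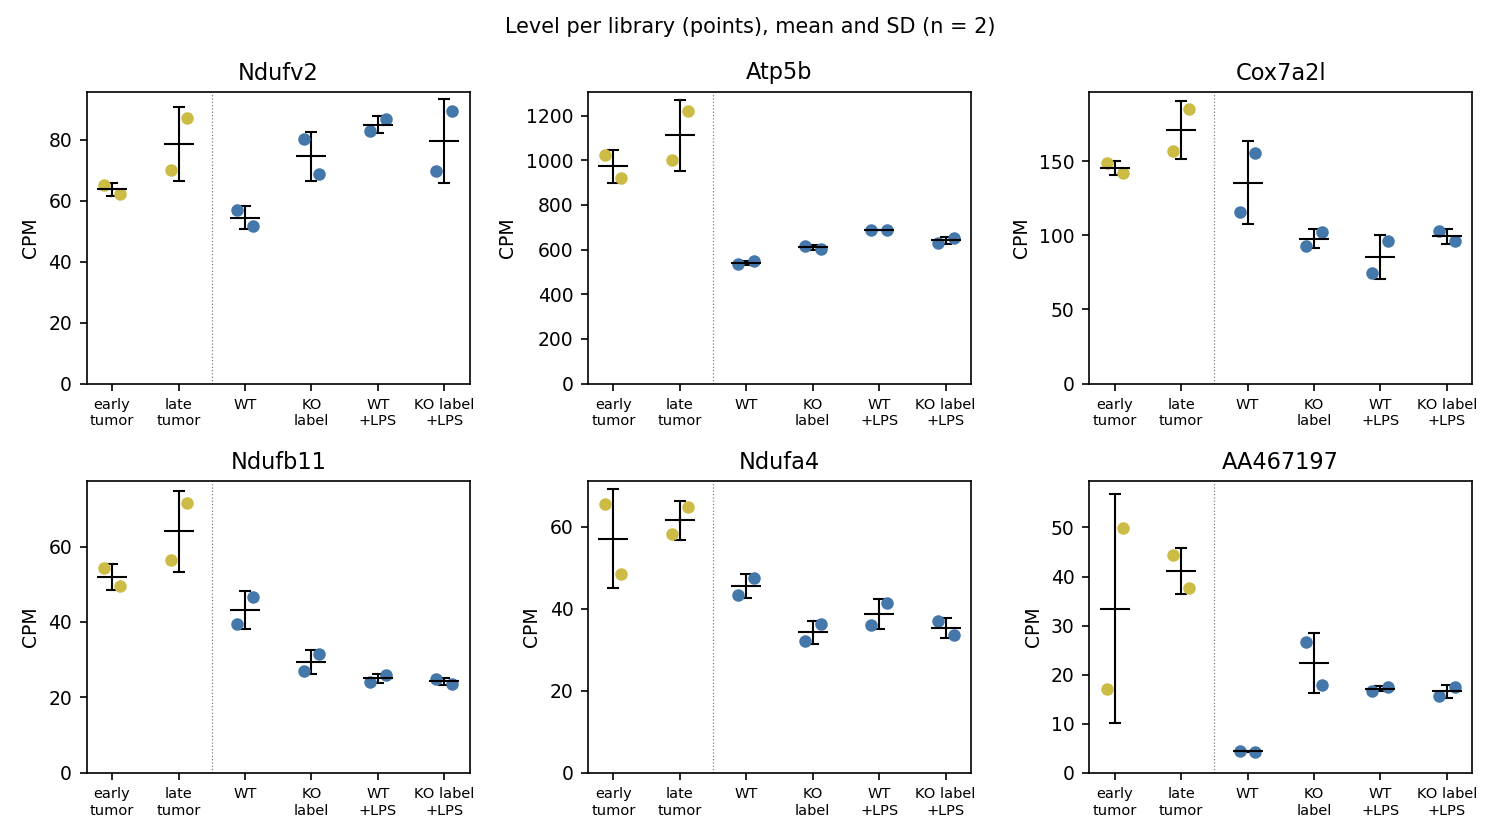
CPM per library (points) with mean and SD (n = 2) for 5 subunits and AA467197 in the 6 groups; the dotted line divides the separately scaled tumoral and BMDC tables. The unstimulated WT libraries stand apart in Ndufb11 (39.5 and 46.7 CPM) and AA467197 (4.48 and 4.27 CPM), and early tumoral replicates differ widely in AA467197 (17.0 and 49.96 CPM).

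In knockout-labelled BMDCs, LPS changed 0 of 80 subunits, as it did 0% of all genes. At an unadjusted p under 0.05 there were 10 subunits and 2800 genes, and DESeq2 called 0 subunits and 6.07% of genes. The median log2 fold change was -0.09 against -0.02 over all genes, with 18 of 80 positive; the LPS libraries lay below the unstimulated ones for 33 subunits (41.2%), against 28.7% of all genes, and above for 8 (10%), against 27.1%. The smallest p was that of Ndufb4, an accessory subunit of the membrane arm. It was read under 3 names and so counts 3 times among the 10 subunits and the 33 above. Ndufb4 was at 32.3 and 35.8 CPM without and 23.4 and 26.3 CPM with LPS (log2 fold change -0.46, SE 0.13, adjusted p = 0.118 by edgeR). Next was Ndufv1, the subunit that oxidises NADH, at 46.2 and 51.5 against 40.9 and 38.2 CPM (-0.30, SE 0.10, adjusted p = 0.137 by edgeR). Neither gene's groups overlapped. The 8 macrophage markers summed to 1285 to 1390 CPM without and 629.8 to 1032 CPM with LPS, with 4 of 8 lower. The 5 fibroblast markers summed to 30.2 to 48.6 CPM without and 17.1 to 28.7 CPM with LPS, with 4 of 5 lower, and the part of both lists was not tested.

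With LPS in both, knockout-labelled and WT BMDCs differed in 0 of 80 subunits and in 0% of all genes. At an unadjusted p under 0.05 there were 5 subunits and 1330 genes, and DESeq2 called 0 subunits and 1.15% of genes. The knockout-labelled libraries were nonetheless mostly the lower ones: 32 subunits (40%) lay below both WT libraries, against 23.3% of all genes, and 5 above (6.25%), against 22.6%, with a median log2 fold change of -0.09 against -0.01. Without WT LPS replicate 2 that median was -0.06, with 28 of 81 positive in place of 16 of 80. The 8 macrophage markers summed to 1094 to 1404 CPM in WT and 629.8 to 1032 CPM in knockout-labelled LPS libraries, with 4 of 8 lower, and 2 of 6 neutrophil markers were higher; their part was not tested.

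Ndufv3, an accessory subunit of the NADH-oxidising arm, had the smallest p and went the other way, at 23.9 and 21.5 CPM in WT and 40.8 and 29.8 CPM in knockout-labelled LPS libraries (log2 fold change 0.64, SE 0.16, adjusted p = 0.286 by edgeR). Sdhb was at 81.8 and 91.1 against 66.0 and 74.1 CPM (-0.30, SE 0.10, adjusted p = 0.396 by edgeR). Ndufb6, an accessory subunit of the membrane arm, was at 17.2 and 16.4 against 12.4 and 12.3 CPM (-0.45, SE 0.15), and Atp5g1 at 49.8 and 54.8 against 43.0 and 41.9 CPM (-0.30, SE 0.10). The libraries of the 2 groups did not overlap in any of these 4 genes.

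The difference between the LPS responses of the 2 genotype labels was tested as an interaction, and 0 of 80 subunits passed, against 4.48% of all genes (0.566% higher and 3.91% lower). At an unadjusted p under 0.05 there were 10 subunits and 2789 genes, and DESeq2 called 0 subunits and 8.22% of genes. Ndufv2 had a log2 fold change with LPS of 0.64 in WT and 0.10 (SE 0.13) in knockout-labelled cells, a difference of -0.55 (SE 0.19, adjusted p = 0.142 by edgeR). Cox7a2l had -0.67 and 0.02 (SE 0.16), a difference of 0.69 (SE 0.23, adjusted p = 0.131 by edgeR), which passed at an adjusted p of 0.04995 by edgeR without unstimulated WT replicate 1. Ndufa6 had -0.60 and -0.11 (SE 0.12), a difference of 0.50 (SE 0.17, adjusted p = 0.144 by edgeR). Atp5c1 had -0.26 and 0.12 (SE 0.10 each), a difference of 0.38 (SE 0.13, adjusted p = 0.148 by edgeR). That the LPS changes of Ndufv2, Cox7a2l and Ndufa6 passed in WT and not in knockout-labelled cells is therefore not shown to be a difference between the labels, and Atp5c1 passed in neither. AA467197 did pass, with 1.97 in WT, -0.43 (SE 0.19) in knockout-labelled cells and a difference of -2.40 (SE 0.28, adjusted p = 0.00668 by edgeR).

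Across all 6 comparisons the fitted changes of subunits of average log2 CPM at least 2 lay between 0.58-fold and 1.61-fold. Among subunits whose average log2 CPM reached 2 (80 for the tumoral DCs, 78 for the BMDCs), the largest rise was 1.59-fold (Ndufa7) and the largest fall to 0.96 of the early level (Atp5k) in the tumoral DCs, and in WT BMDCs with LPS the range ran from 0.58 (Ndufb11) to 1.56 (Ndufv2). In knockout-labelled cells with LPS it ran from 0.67 (Ndufa12) to 1.19 (Ndufv3). Between the genotype labels it ran from 0.63 (Ndufs8) to 1.37 (Ndufv2) unstimulated and from 0.72 (Ndufa12) to 1.56 (Ndufv3) with LPS. For the interaction it ran from 0.68 (Ndufv2) to 1.61 (Cox7a2l). Cox6a2, below that level in the BMDCs, had log2 fold changes of -0.89 with LPS in WT and 1.13 for the interaction and did not pass. The median SE of a subunit's log2 fold change was 0.23 in the tumoral comparison, 0.12 in each BMDC comparison of 2 groups and 0.17 for the interaction.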

How the data were processed

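RNA-seq counts of 12 mouse libraries were analysed. The authors deposited raw counts per gene symbol, in 1 table for the tumoral DCs and 1 for the BMDCs. The submitters' processing notes name mm10 as the build, HISAT2 2.2.1, fastp 0.12.4 and featureCounts 2.0.1; for the annotation, strand setting and multi-mapping reads, nothing is given in the sources used here. The extraction text of the labels describes a different tissue. Depth was 14.2 to 19.3 M counts per tumoral and 16.1 to 19.7 M per BMDC library.

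Each table was fitted separately with edgeR 4.0.16 (R 4.3.3): filterByExpr (minimum count 10), TMM, robust glmQLFit and glmQLFTest, Benjamini-Hochberg adjustment over all tested genes, called at 0.05. All 8 BMDC libraries formed 1 fit. SE is the log2 fold change over the root of F. Alternatives used DESeq2 1.42.0, limma 3.58.1 (voom), other scalings and filters, a replicate block and left-out libraries. The steps were tested on simulated data.

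The members, lists and tests were chosen with earlier results of these data known. Full values were given, per comparison, for up to 4 called subunits in each direction, or the 4 of smallest p where fewer than 3 were called, for isoform pairs and for catalytic subunits (1 gene of the rule is not reported here), and from other lists up to 2 genes per direction; the values of Ndufs8 for LPS in WT and of Atp5c1 for the unstimulated genotype labels were added after they were seen. Of 84 subunits, 80 had a GENCODE M21 position (28 with exons overlapping another gene) and 68 a RefSeq promoter window. The symbol Pc of the TCA cycle list had no match.

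Same-numbered replicates did not deviate together in every pair of groups, so the numbers were not taken as pairs: the correlation of the replicate differences was -0.144 in the tumoral table, 0.197 to 0.364 among the 3 BMDC groups other than knockout-labelled with LPS, and -0.301 to -0.105 between these and that group. Replicates of a group differed by more than sampling noise (chi-square per degree of freedom 15.3 to 93.5), so none was treated as a library deposited again; this does not show that they are separate animals or cultures.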

Additional observations from a re-analysis of the deposited data

Results flagged for a closer look

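The LPS responses of 6 genes that are not subunits differed between the 2 genotype labels by the interaction test (edgeR, adjusted p under 0.05), given as LPS in knockout-labelled minus LPS in WT BMDCs. They were AA467197, 1 of 19 TCA cycle genes, 2 of 15 stress genes, 1 of 23 import and carrier genes and 1 of 81 cytosolic ribosomal proteins, where 4.48% of all genes passed. None of 56 assembly factors, 77 mitochondrial ribosomal proteins, 24 mitochondrial DNA expression genes or 13 coenzyme Q genes passed. AA467197, the relative of Ndufa4, differed by -2.40 on the log2 scale (SE 0.28, adjusted p = 0.00668). Acod1, the itaconate-forming enzyme, differed by -3.15 (SE 0.31), with 25.6 and 35.9 CPM in unstimulated WT, 224 and 155 CPM in unstimulated knockout-labelled, 360 and 285 CPM in WT LPS and 217 and 231 CPM in knockout-labelled LPS libraries. Sod2 differed by -2.02 (SE 0.31), with 58.7 and 69.4, 186 and 129, 154 and 125, and 71.0 and 98.6 CPM in the same order. Atf5, a factor of the mitochondrial stress response, differed by -1.06 (SE 0.19), and Slc25a20, the carnitine carrier, by -0.83 (SE 0.18). Rps15a, a cytosolic ribosomal protein, differed by 0.84 (SE 0.20, adjusted p = 0.0489), the only one of the 6 with a positive difference. It was not alone in its list. Of the 81 cytosolic ribosomal proteins 77 had a positive difference, against 6441 of 13072 genes, with a median of 0.53 against -0.01. At an unadjusted p under 0.05 by edgeR there were 57 of the 81, against 2789 of all genes. In all 6 genes the unstimulated knockout-labelled libraries lay apart from the unstimulated WT libraries, on the side of the WT LPS libraries. The genes were picked by the interaction test in these same libraries, which favours such a pattern, so it is no separate result.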

How the results depend on the processing

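With 2 libraries per group, edgeR's common biological coefficient of variation came to 0.278 for tumoral DCs and 0.138 for BMDCs. Leaving out 1 library at a time, the number of subunits called ranged from 0 to 2 for late against early tumors (Ndufa7 and Uqcr11 without early replicate 1), from 3 to 11 for LPS in WT, from 0 to 8 for the unstimulated genotype comparison and from 0 to 1 for the interaction (Cox7a2l), and was 0 for the others. The subunits' median ranged from 0.142 to 0.367, -0.103 to -0.0504, -0.0917 to -0.0339 and -0.0779 to 0.0143 in these 4 comparisons, and from -0.0939 to -0.0557 for LPS in knockout-labelled cells and -0.133 to -0.0595 for the genotype labels with LPS. A group left with 1 library was assumed to vary like the others. Scaling to library size alone gave 33 called subunits for LPS in WT and medians of -0.29 for LPS in WT, -0.172 for LPS in knockout-labelled cells, -0.156 for the unstimulated genotype comparison and 0.1 for the interaction, with medians of all genes of -0.23, -0.09, -0.11 and 0.12. Upper-quartile scaling gave a median of -0.153 for LPS in WT. A filter at an average of 10 CPM gave 17 called (2 higher, 15 lower of 77) and a median of -0.143 there. A fit of only the 4 libraries compared gave 0 called in the unstimulated genotype comparison. The causes were not tested. Over all genes, edgeR and DESeq2 called 3 and 311 for late against early, 0 and 793 for LPS in knockout-labelled cells, 0 and 150 for the genotype labels with LPS, and 585 and 1075 for the interaction; the calls over subunits stayed 0 in these 4 by DESeq2.

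With the replicate number as a block, 12 subunits were called for LPS in WT, 9 in the unstimulated genotype comparison (all lower) and 0 in the others. Since the tumoral numbers deviated in opposite ways, a crossed pairing was added after seeing the data and called 0 subunits and 378 genes, against 173 genes with the numbers as labelled. Also added were fits with 1 Ndufb4 symbol and without cytosolic ribosomal proteins, which called 11 subunits for LPS in WT and 6 in the unstimulated genotype comparison. The AA467197 difference between genotype labels with LPS, -0.05 and not called, ranged from -0.135 to 0.0269 with 1 library left out and was positive only without knockout-labelled LPS replicate 1.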
